A study of Mus musculus with 6 samples.

Results

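The clustered protocadherins are cell surface proteins of the cadherin superfamily, encoded in 3 neighbouring tandem arrays called alpha, beta and gamma. In the alpha and gamma clusters each variable exon has its own promoter and is spliced to a small set of constant exons, whereas each beta gene is a single coding exon. A neuron turns on only some of the alternative isoforms, so that neighbouring neurons carry different combinations and can tell their own branches from those of others. The C-type isoforms at the end of the alpha and gamma clusters are chosen in a more uniform way, and binding of CTCF and cohesin and DNA methylation at the promoters take part in the choice.

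The members were the genes whose symbol is Pcdha or Pcdhac, Pcdhb, or Pcdhga, Pcdhgb or Pcdhgc followed by a number. There were 56 among the 42365 genes of the deposited count table: 14 alpha, 22 beta and 20 gamma genes, the gamma genes being 11 of A type, 6 of B type and 3 of C type. In the GENCODE annotation of GRCm38, the build that the submitters' processing notes name, all lie on the plus strand of chromosome 18. The alpha genes span positions 36930184 to 37187661, the beta genes 37264938 to 37524479 and the gamma genes 37661793 to 37841873.

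RNA was sequenced from 2 libraries of knockout clone 2, 2 libraries of knockout clone 1 and 2 libraries of parental cells with the genotype WT, all labelled as the mouse neural progenitor line NPC. Each knockout group is 1 clone, and neither the edited allele nor the way it was made is given in the sources used here. The titles number the 2 parental libraries as clones of their own, whereas the 2 libraries of a knockout group are repeats of the same clone. Nothing else says whether libraries came from separate cultures, so p-values measure the spread between these libraries, which within a knockout clone may be technical.

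Library totals were 65345036 and 60924858 counts for clone 2, 66955560 and 69530032 for clone 1, and 63879208 and 58871554 for the parental cells. The knockout was taken from the labels alone, and the clones are called labelled knockout below. The summed level of 8 neural progenitor markers was 4138 and 4163 CPM, counts scaled to library size, in clone 2, 3557 and 3537 CPM in clone 1, and 4544 and 4524 CPM in the parental cells. Vim and Slc1a3 carried most of it. The list moved both ways, with 2 genes called higher and 5 lower in clone 2 and 3 higher and 5 lower in clone 1. At the same threshold, an adjusted p under 0.05, 53.5% of all genes tested were called in clone 2 and 54.5% in clone 1. Sox1, a transcription factor of neural progenitors, was at 3.17 CPM in clone 2, 3.35 CPM in clone 1 and 60.5 CPM in the parental libraries, while Fabp7, a fatty acid binding protein of radial glia, was at 606 CPM, 601 CPM and 165 CPM in the same order. Sums of the marker lists of microglia (5 genes), fibroblasts (5), endothelium (4) and pluripotent cells (4) were all below 5 CPM in every library, and Lum, Cldn5, Pou5f1, Zfp42 and Dppa5a were below 0.1 CPM in each.

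**Figure D1:**
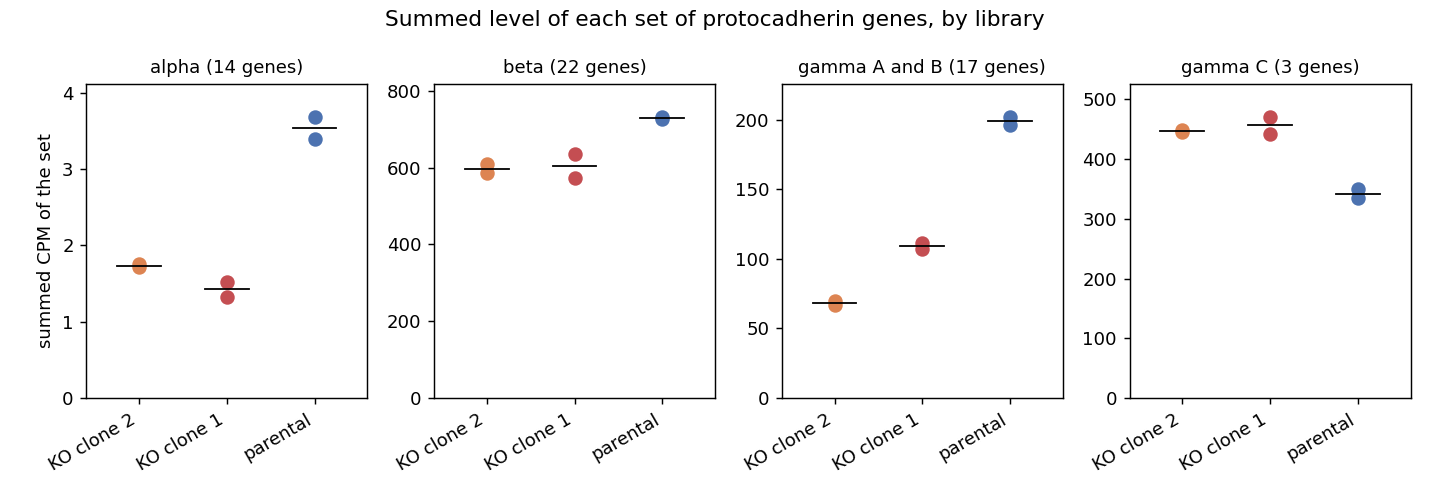
Summed CPM (vertical axes, from 0) of the alpha, beta, gamma A and B, and gamma C genes in each library (points, 2 per group), with the mean of a group as a line. The alpha, beta and gamma A and B sums are lower in all 4 labelled knockout libraries than in both parental ones, and the gamma C sum is higher in all 4.

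The alpha cluster lay orders of magnitude below the other two in level, and the labelled knockout clones had less alpha RNA, slightly less beta RNA and about as much gamma RNA as the parental cells. The 14 alpha genes together reached 1.74 ± 0.0221 CPM in clone 2, 1.43 ± 0.141 CPM in clone 1 and 3.54 ± 0.202 CPM in the parental libraries (SD, n = 2 each). The 22 beta genes reached 597 ± 16.5 CPM in clone 2, 603 ± 43.8 CPM in clone 1 and 729 ± 2.97 CPM in the parental libraries. The 20 gamma genes reached 515 ± 4.23 CPM in clone 2, 566 ± 22.8 CPM in clone 1 and 541 ± 14.7 CPM in the parental libraries, and their total was the only one of the 3 for which clone 1 lay above the parental mean. On the log2 scale the alpha total fell by 1.31 in clone 1 and by 1.03 in clone 2 relative to the parental mean, and the beta total fell by 0.27 and by 0.29. With 2 libraries a group, these totals were described and not tested. They add counts of genes whose own exons differ in length, without scaling to that length. In a bulk library, fewer cells that express a gene and less RNA per cell cannot be told apart.

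Within the gamma cluster the near-constant total covered opposite movements of its subtypes. The 17 A and B genes summed to 68.2 ± 1.91 CPM in clone 2, 109 ± 3.40 CPM in clone 1 and 199 ± 4.08 CPM in the parental libraries. The 3 C-type genes summed to 447 ± 2.32 CPM in clone 2, 456 ± 19.4 CPM in clone 1 and 342 ± 10.6 CPM in the parental libraries. The A and B genes therefore held 13.2% ± 0.261 of the gamma counts in clone 2 and 19.3% ± 0.176 in clone 1, against 36.7% ± 0.241 in the parental libraries.

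After a filter on low counts, 45 of the 56 genes were tested: 4 alpha, 21 beta and all 20 gamma genes. The 10 alpha genes left out and Pcdhb1 had at most 17 counts in any library. Of the 4 alpha genes tested, Pcdha9 and Pcdha12 passed the filter only through the parental libraries, where they were high, so that their lower calls, included in the counts given here, are no support for a fall. In clone 1 against parental, 13 genes were higher, 23 lower and 9 not called at an adjusted p under 0.05, so that 80% of those tested were called. Of all 23400 genes tested, 54.5% were called, 27.3% higher and 27.2% lower. In clone 2 against parental, 8 were higher, 23 lower and 14 not called, or 68.9% called, against 53.5% of all genes (26.7% higher and 26.8% lower). Both comparisons use the same parental libraries, and the high backgrounds limit what either share says about protocadherins.

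Clone 2 against clone 1 was the comparison in which the members stood furthest from the background. There, 12 genes were higher, 21 lower and 12 not called, or 73.3% of those tested, against 36.4% of all genes (16.1% higher and 20.3% lower). Differences of at least 1 on the log2 scale were called for 13 of the 45 genes, or 28.9%, against 6.41% of all genes. In clone 1 against parental such differences were called for 13 genes, or 28.9%, against 21.7% of all genes, and in clone 2 against parental for 15, or 33.3%, against 21.8%. Both counts against parental include Pcdha9 and Pcdha12, which passed the filter only through the parental libraries and are no support for a fall. The median size of the log2 difference was 0.66 for the members and 0.29 for all genes tested. In clone 1 against parental the same 2 medians were 0.58 and 0.46, and in clone 2 against parental 0.51 and 0.44.

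With the 2 libraries of each clone added and the clones as replicates, 3 members were higher and 11 lower in labelled knockout than in parental cells among 46 tested, or 30.4%, against 26.7% of all genes (13% higher and 13.6% lower). Of these, 10 differed by at least 1 on the log2 scale, or 21.7%, against 16.5% of all genes. The 10 include Pcdha12 and Pcdhac1, which passed the filter only through the parental libraries and are no support for a fall. The 14 calls were 36 with single libraries as replicates and 4 without either of the parental libraries. Called higher were Pcdhgc3, Pcdhgc4 and Pcdhgb2, and these calls were lost without either of the parental libraries. The third gamma C-type gene, Pcdhgc5, was not called (log2 0.60, SE 0.176, adjusted p = 0.0596). The lower calls were Pcdha12 and Pcdhac1 in the alpha cluster, which passed the filter only through the parental libraries, Pcdhb7 and Pcdhb9 in the beta cluster, and Pcdhga6, Pcdhga8, Pcdhga9, Pcdhgb4, Pcdhgb5, Pcdhgb6 and Pcdhgb7 in the gamma cluster.

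Without a test, all 4 labelled knockout libraries lay below both parental libraries in CPM for 11 alpha, 7 beta and 9 gamma genes, a pattern held by 29.5% of all genes in the table. All 4 lay above both parental libraries for 0 alpha, 1 beta and 6 gamma genes, against 16.3% of all genes. The single beta gene was Pcdhb5, and the 6 gamma genes were Pcdhga2, Pcdhga5, Pcdhgb2 and the 3 C-type genes.

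In the alpha cluster, the C-type isoform Pcdhac2 was the most abundant gene in every group, and its share of the cluster was larger in the labelled knockout clones although its own count was smaller. Pcdhac2 had 82 and 77 counts in clone 2, 80 and 74 in clone 1, and 108 and 99 in the parental libraries. It took 71.7% ± 1.38 of the alpha counts in clone 2 and 80.7% ± 0.932 in clone 1, against 47.6% ± 2.64 in the parental libraries. Its level itself was lower in clone 1, by 0.55 in log2 units (SE 0.193, adjusted p = 0.0243). That call was lost with no filter, with DESeq2, and without either parental library or clone 1 replicate 2. In clone 2 the difference was -0.43 (SE 0.192, adjusted p = 0.0689).

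The 12 numbered alpha isoforms carried the larger part of the alpha loss. Their counts summed to 61 in clone 2 and 33 in clone 1, against 205 in the parental libraries, with the libraries of a group added. After scaling, clone 2 held 0.286 of the parental amount (95% counting interval 0.212 to 0.383) and clone 1 held 0.148 (0.099 to 0.214). These intervals cover counting error only, since reads are not independent molecules.

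Among the numbered isoforms, Pcdha10 separated the clones. This gene, which the annotation lists under Pcdha11, had 29 and 19 counts in clone 2, 1 and 0 in clone 1, and 27 and 35 in the parental libraries. It passed the filter through the parental and clone 2 libraries. It was lower in clone 1 than in the parental cells (adjusted p = 8.47e-06, and called with no filter as well) and higher in clone 2 than in clone 1 (adjusted p = 7.97e-05), whereas clone 2 and parental did not differ beyond their spread (log2 -0.43, SE 0.409, adjusted p = 0.4), clone 2 holding 0.745 of the parental amount with a counting interval of 0.5004 to 1.104. It supplied 21.5% ± 5 of the alpha counts in clone 2, 0.5% ± 0.707 in clone 1 and 14.5% ± 4.29 in the parental libraries.

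Pcdha9 was lower in the labelled knockout libraries than in both parental ones, with 0 and 1 counts in clone 2, 7 and 4 in clone 1, and 24 and 19 in the parental libraries. After scaling, clone 2 held 0.0224 of the parental amount (counting interval 0.000554 to 0.132) and clone 1 held 0.235 (0.109 to 0.463). The clone 2 against clone 1 call (adjusted p = 0.0455) was lost with the replicate numbers as a block and in 5 of the 6 fits that left out a library, and DESeq2 gave no adjusted p. Pcdha12 had 1 and 2 counts in clone 2, 0 and 0 in clone 1, and 10 and 11 in the parental libraries, and clone 2 held 0.138 of the parental amount (counting interval 0.0263 to 0.461), while clone 1, with no count, allowed at most 0.176.

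Pcdhac1, the other alpha C-type isoform, had 1 and 1 counts in clone 2, 2 and 2 in clone 1, and 17 and 7 in the parental libraries. Clone 2 held 0.0802 of the parental amount (counting interval 0.00919 to 0.323) and clone 1 held 0.153 (0.0386 to 0.445). Pcdha7 had 0 and 2 counts in clone 2, 3 and 3 in clone 1, and 10 and 4 in the parental libraries. The remaining numbered isoforms ran from 0 to 13 counts in any library, and Pcdha4 was seen in 1 parental library only, with 3 counts. Pcdha4 has 404 exon bases of its own, the fewest of the alpha genes, so its counts cannot be set beside theirs without that length.

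**Figure D2:**
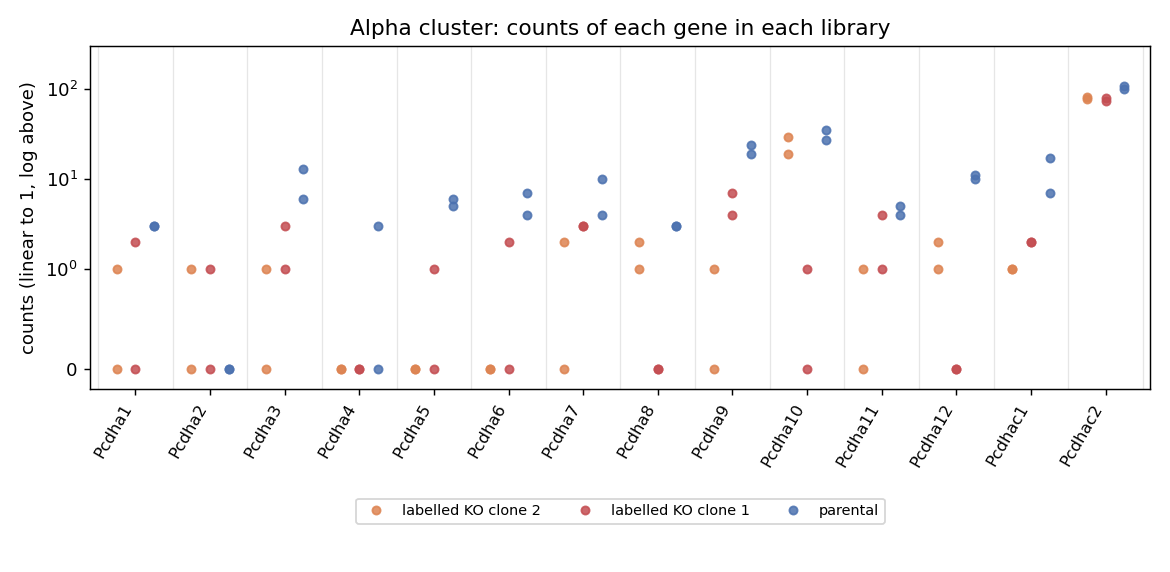
Counts of the 14 alpha genes in locus order (vertical axis linear to 1 and logarithmic above) in each library, with labelled knockout clone 2, clone 1 and parental from left to right within a gene. Pcdhac2 lies at 74 to 108 counts, while Pcdha10 is at 19 to 35 counts in clone 2 and parental libraries and at 0 and 1 in clone 1.

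The beta cluster was spread over many genes in every group, and the clones changed which of them led in counts. In clone 1, Pcdhb16 held 14.8% ± 0.468 of the beta counts, followed by Pcdhb19 with 11.1% ± 0.669 and Pcdhb5 with 10.7% ± 0.215. In clone 2, Pcdhb14 led with 13.0% ± 0.247, followed by Pcdhb5 with 11% ± 0.0991 and Pcdhb16 with 9.86% ± 0.182. In the parental libraries, Pcdhb9 with 10.5% ± 0.109 and Pcdhb16 with 10.3% ± 0.241 could not be separated beyond their spread, and Pcdhb19 followed with 9.01% ± 0.363.

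Per kilobase of its own exon, which allows genes to be compared, Pcdhb5 was at 18.3 ± 1.69 CPM per kb in clone 1, where Pcdhb16 was at 17.1 ± 0.702, a difference smaller than the spread. In clone 2, Pcdhb5 led with 18.5 ± 0.678 CPM per kb, above Pcdhb10 with 11.5 ± 0.417 and Pcdhb16 with 11.3 ± 0.103. Pcdhb14, which led clone 2 in counts, has the longest own exon of the beta genes, 8695 bases. Per kilobase it held rank 6 there, with 8.92 ± 0.416 CPM per kb. In the parental libraries Pcdhb9 led with 25.1 ± 0.361 CPM per kb, above Pcdhb5 with 15.3 ± 0.648 and Pcdhb16 with 14.4 ± 0.394.

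Against the parental cells, 4 beta genes were higher and 11 lower in clone 1, and 4 were higher and 10 lower in clone 2, of 21 tested, beside 54.5% of all genes called in clone 1 and 53.5% in clone 2. Pcdhb9, the parental leader, had 1878 and 1822 counts in clone 2, 1215 and 1226 in clone 1, and 4966 and 4471 in the parental libraries. The groups did not overlap, and the fall was 4.21-fold in clone 1 (log2 -2.07, SE 0.0564, adjusted p = 9.48e-15) and 2.65-fold in clone 2 (log2 -1.40, SE 0.0545, adjusted p = 1.11e-12). Pcdhb7, upstream of it, had 278 and 262 counts in clone 2, 170 and 181 in clone 1, and 991 and 967 in the parental libraries. It fell 6.08-fold in clone 1 (adjusted p = 1.54e-12) and 3.77-fold in clone 2 (adjusted p = 4.81e-11). Both genes were higher in clone 2 than in clone 1, by 0.67 (SE 0.0569, adjusted p = 1.52e-07) for Pcdhb9 and by 0.69 (SE 0.113, adjusted p = 0.000148) for Pcdhb7 on the log2 scale.

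Pcdhb8, which lies between these 2 genes, did not move with them. It had 781 and 763 counts in clone 2, 1615 and 1641 in clone 1, and 1321 and 1280 in the parental libraries. It fell by 0.81 on the log2 scale in clone 2 (SE 0.0724, adjusted p = 6.6e-08), while the rise of 0.20 in clone 1 (SE 0.0694, adjusted p = 0.0237) was lost with upper quartile scaling, with DESeq2 and without either parental library.

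Pcdhb2 and Pcdhb6, near the start of the beta cluster, were called lower in clone 1 and higher in clone 2, whereas Pcdhb5, which lies between them, was called higher in each clone. Pcdhb6 had 491 and 521 counts in clone 2, 146 and 153 in clone 1, and 377 and 311 in the parental libraries, so that the 3 groups did not overlap. It fell by 1.32 on the log2 scale in clone 1 (SE 0.13, adjusted p = 1.87e-07), rose by 0.51 in clone 2 (SE 0.115, adjusted p = 0.00138) and differed by 1.83 between clone 2 and clone 1 (SE 0.126, adjusted p = 1.33e-08). Pcdhb2 had 1743 and 1554 counts in clone 2, 840 and 797 in clone 1, and 1090 and 1033 in the parental libraries. It also fell in clone 1 (log2 -0.50, adjusted p = 3.14e-05) and rose in clone 2 (log2 0.58, adjusted p = 4.48e-06).

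Pcdhb3 and Pcdhb10 were called lower in clone 1 and not called in clone 2 against the parental cells, and the direct comparison of the clones was called for both. In clone 2, Pcdhb3 lay close to the threshold (log2 0.19, SE 0.0764, adjusted p = 0.0506), unlike Pcdhb10 (log2 0.06, SE 0.0696, adjusted p = 0.524). Pcdhb3 averaged 18.02 ± 0.818 CPM in clone 2, 8.37 ± 0.109 CPM in clone 1 and 15.8 ± 0.0869 CPM in the parental libraries. Pcdhb10 averaged 32.6 ± 1.19 CPM in clone 2, 12.7 ± 0.82 CPM in clone 1 and 31.4 ± 1.92 CPM in the parental libraries. Clone 2 exceeded clone 1 by 1.11 (SE 0.0795, adjusted p = 2.15e-08) for Pcdhb3 and by 1.37 (SE 0.0732, adjusted p = 6.27e-10) for Pcdhb10 on the log2 scale. Pcdhb4, next to Pcdhb3 and named with its values known, had the same pattern of calls. It averaged 23.9 ± 0.694 CPM in clone 2, 11.5 ± 0.876 CPM in clone 1 and 22.5 ± 0.471 CPM in the parental libraries. Clone 2 exceeded clone 1 by 1.06 (SE 0.0755, adjusted p = 1.88e-08).

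Pcdhb14, the leader in clone 2 by counts but not per kilobase, had 5304 and 4620 counts in clone 2, 3395 and 3333 in clone 1, and 3832 and 3741 in the parental libraries. It fell by 0.30 in clone 1 (SE 0.0543, adjusted p = 0.000205) and rose by 0.33 in clone 2 (SE 0.0538, adjusted p = 6.22e-05) on the log2 scale. Pcdhb16 moved the other way, with 59.2 and 58.4 CPM in clone 2, 91.9 and 86.7 CPM in clone 1, and 76.5 and 73.6 CPM in the parental libraries. It rose by 0.25 in clone 1 (SE 0.0482, adjusted p = 0.000325) and fell by 0.35 in clone 2 (SE 0.0487, adjusted p = 1.16e-05).

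Pcdhb11, Pcdhb18 and Pcdhb19 were lower in clone 2 than in clone 1. Pcdhb11 averaged 21.3 ± 0.507 CPM in clone 2, 33.7 ± 4.02 CPM in clone 1 and 47.4 ± 1.58 CPM in the parental libraries, falling by 0.49 and by 1.16 on the log2 scale in clones 1 and 2 (adjusted p = 1.91e-05 and 8.09e-10). Pcdhb18 averaged 31.4 ± 3.09 CPM in clone 2, 50.8 ± 6.05 CPM in clone 1 and 57.1 ± 0.635 CPM in the parental libraries, and was called in clone 2 (log2 -0.86, adjusted p = 1.04e-06) but not in clone 1 (log2 -0.17, adjusted p = 0.0927). Clone 2 differed from clone 1 by -0.66 for Pcdhb11 (adjusted p = 3.16e-06) and by -0.70 for Pcdhb18 (adjusted p = 2.21e-05). Pcdhb19 averaged 48.7 ± 2.80 CPM in clone 2, 67.3 ± 8.91 CPM in clone 1 and 65.7 ± 2.38 CPM in the parental libraries, and fell in clone 2 (log2 -0.43, adjusted p = 0.00058), with -0.47 between clone 2 and clone 1 (adjusted p = 0.000604).

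Pcdhb5 was the beta gene with the most even rise. It averaged 65.5 ± 2.40 CPM in clone 2, 64.8 ± 5.99 CPM in clone 1 and 53.9 ± 2.29 CPM in the parental libraries, and was called higher in clone 1 (log2 0.26, adjusted p = 0.00154) and in clone 2 (log2 0.28, adjusted p = 0.000979). The clone 1 call was lost without parental replicate 2. Pcdhb15 was called higher in clone 1 alone (log2 0.38, SE 0.0794, adjusted p = 0.000638), and the clones differed by -0.33 (SE 0.079, adjusted p = 0.00397), a difference lost without clone 2 replicate 2. Of the 7 tested beta genes not picked by the naming rule, Pcdhb4 had the lowest value in clone 1 (log2 -0.97) and Pcdhb13 in clone 2 (log2 -0.47), and Pcdhb12 and Pcdhb21 were called in neither clone.

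**Figure D3:**
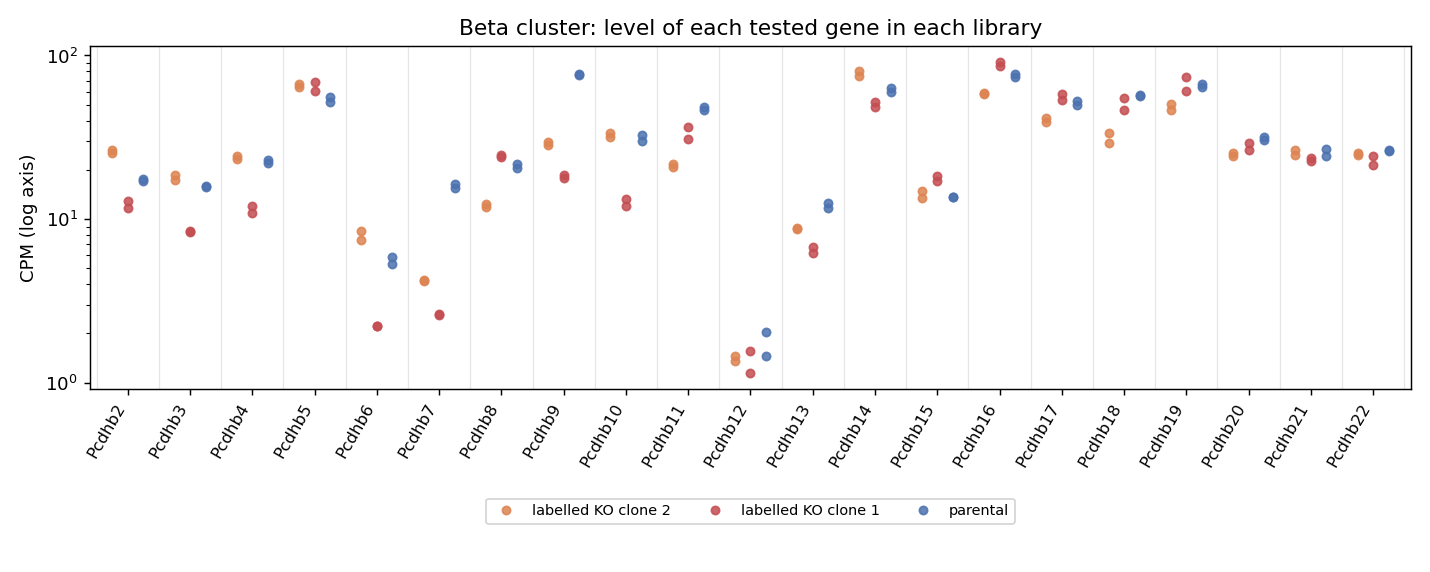
CPM (logarithmic axis) of the 21 tested beta genes in locus order in each library, with labelled knockout clone 2, clone 1 and parental from left to right within a gene. Pcdhb9 and Pcdhb7 are lower in all 4 labelled knockout libraries, while genes such as Pcdhb2, Pcdhb3, Pcdhb4, Pcdhb6 and Pcdhb10 lie lower in the clone 1 libraries than in all others.

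The gamma cluster was dominated by Pcdhgc3, a C-type isoform made in many cell types besides neurons. It had 28130 and 26387 counts in clone 2, 29649 and 29206 in clone 1, and 20686 and 19880 in the parental libraries. Its share of the gamma counts was 82.8% ± 0.203 in clone 2 and 77.6% ± 0.208 in clone 1, against 61.0% ± 0.282 in the parental libraries. It rose 1.33-fold in clone 1 (log2 0.41, SE 0.0435, adjusted p = 4.78e-07) and 1.29-fold in clone 2 (log2 0.37, SE 0.0435, adjusted p = 1.81e-06), and the clones did not differ beyond their spread (log2 -0.04, SE 0.0434, adjusted p = 0.501). At 234 ± 1.32 CPM per kb in clone 2, 241 ± 10.4 in clone 1 and 181 ± 5.75 in the parental libraries, it exceeded every other clustered protocadherin per length of own exon.

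The other gamma C-type genes rose too. Pcdhgc4, an isoform needed for the survival of neurons in mice, had 712 and 681 counts in clone 2, 644 and 665 in clone 1, and 432 and 372 in the parental libraries. Its rise was 0.58 in clone 1 (SE 0.0925, adjusted p = 5.03e-05) and 0.74 in clone 2 (SE 0.0922, adjusted p = 3.57e-06) on the log2 scale. Pcdhgc5 had 643 and 568 counts in clone 2, 524 and 507 in clone 1, and 353 and 359 in the parental libraries. Its rise was 0.41 in clone 1 (adjusted p = 0.00303), lost without parental replicate 1, and 0.71 in clone 2 (adjusted p = 1.8e-05). The 2 alpha C-type genes did not share this direction, as given above.

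Among the beta and gamma genes, the largest differences from the parental cells were those of Pcdhgb4 and Pcdhga6, B-type and A-type isoforms that were next to Pcdhgc3 the most counted gamma genes in the parental cells. Pcdhgb4 had 127 and 138 counts in clone 2, 214 and 206 in clone 1, and 5287 and 4825 in the parental libraries. It was 26.2-fold lower in clone 1 (log2 -4.71, SE 0.0802, adjusted p = 3.29e-17) and 39.6-fold lower in clone 2 (log2 -5.31, SE 0.0852, adjusted p = 1.65e-17). Its share of the gamma counts was 0.403% ± 0.0409 in clone 2 and 0.554% ± 0.0105 in clone 1, against 15.2% ± 0.485 in the parental libraries.

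Pcdhga6 had 220 and 187 counts in clone 2, 145 and 156 in clone 1, and 1951 and 1893 in the parental libraries. It was 13.9-fold lower in clone 1 (log2 -3.80, SE 0.0975, adjusted p = 4.63e-15) and 9.82-fold lower in clone 2 (log2 -3.30, SE 0.0936, adjusted p = 1.77e-14). The clones differed in opposite directions for the pair, clone 2 being lower than clone 1 by 0.59 for Pcdhgb4 (SE 0.105, adjusted p = 0.000305) and higher by 0.50 for Pcdhga6 (SE 0.113, adjusted p = 0.0022). Between the 2 in the locus lies Pcdhga7, at 1.47 ± 0.0972 CPM in clone 2, 1.98 ± 0.337 CPM in clone 1 and 1.88 ± 0.262 CPM in the parental libraries, which was called in neither clone.

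Pcdhgb2 became the most counted gamma gene after Pcdhgc3 in both clones. It had 2129 and 2181 counts in clone 2, 2049 and 2111 in clone 1, and 1223 and 1222 in the parental libraries. It rose 1.56-fold in clone 1 (log2 0.64, SE 0.0691, adjusted p = 6.13e-07) and 1.70-fold in clone 2 (log2 0.76, SE 0.0691, adjusted p = 7.44e-08), and all 4 labelled knockout libraries were above both parental ones.

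Several A and B genes at the 5' end of the gamma cluster differed between the clones, as did others further downstream. Within that stretch Pcdhga4, named for its place with its values known, differed by -1.10 between clone 2 and clone 1 on the log2 scale (adjusted p = 1.52e-05), while Pcdhgb2 was not called (log2 0.12, adjusted p = 0.176). Pcdhga1 had 467 and 416 counts in clone 2, 1961 and 1805 in clone 1, and 1106 and 1060 in the parental libraries, with no overlap between the 3 groups. It rose by 0.67 in clone 1 (SE 0.0779, adjusted p = 1.39e-06) and fell by 1.35 in clone 2 (SE 0.0854, adjusted p = 7.17e-10), a difference of -2.03 between clone 2 and clone 1 in log2 units (SE 0.0842, adjusted p = 2.7e-11). Pcdhga3 averaged 1.96 ± 0.553 CPM in clone 2, 7.01 ± 0.0788 CPM in clone 1 and 2.55 ± 0.233 CPM in the parental libraries. It rose 2.75-fold in clone 1 (adjusted p = 5.18e-07) and was 3.58-fold lower in clone 2 than in clone 1 (adjusted p = 1.97e-07).

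Pcdhgb1 averaged 2.20 ± 0.0125 CPM in clone 2, 7.05 ± 0.183 CPM in clone 1 and 9.31 ± 0.0973 CPM in the parental libraries. It fell by 0.40 in clone 1 (adjusted p = 0.0026) and by 2.08 in clone 2 (adjusted p = 9.53e-11) on the log2 scale. Pcdhga2 rose by 1.17 in clone 1 (SE 0.136, adjusted p = 1.62e-06), and the clones differed by -0.89 (SE 0.133, adjusted p = 5.91e-05). Pcdhga5 rose by 0.83 in clone 1 (SE 0.164, adjusted p = 0.000409). Its difference of -0.46 between the clones (adjusted p = 0.0307) was lost with DESeq2 and in 4 fits that left out a library.

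Downstream of Pcdhgb4 lie 7 further A and B genes, most of which were lower in the labelled knockout clones. Pcdhga8 had 93 and 87 counts in clone 2, 153 and 162 in clone 1, and 315 and 322 in the parental libraries, and fell by 1.14 in clone 1 (adjusted p = 2.27e-06) and by 1.88 in clone 2 (adjusted p = 1.29e-08) on the log2 scale. Pcdhgb6 had 71 and 58 counts in clone 2, 126 and 142 in clone 1, and 290 and 250 in the parental libraries, and fell by 1.13 in clone 1 (adjusted p = 6.72e-06) and by 2.12 in clone 2 (adjusted p = 1.18e-08). Clone 2 was lower than clone 1 by 0.74 for Pcdhga8 (SE 0.158, adjusted p = 0.00155) and by 0.98 for Pcdhgb6 (SE 0.177, adjusted p = 0.000354). Pcdhgb5, Pcdhga9 and Pcdhgb7 were called lower in each clone as well, with log2 values of -0.94, -0.90 and -0.70 in clone 1 and of -1.94, -1.79 and -1.16 in clone 2. Pcdhga11 was called in clone 2 (log2 -1.29) and not in clone 1 (log2 -0.44), and Pcdhga12, the last A gene, was higher in clone 1 (log2 0.51) with no call in clone 2 (log2 -0.0036).

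**Figure D4:**
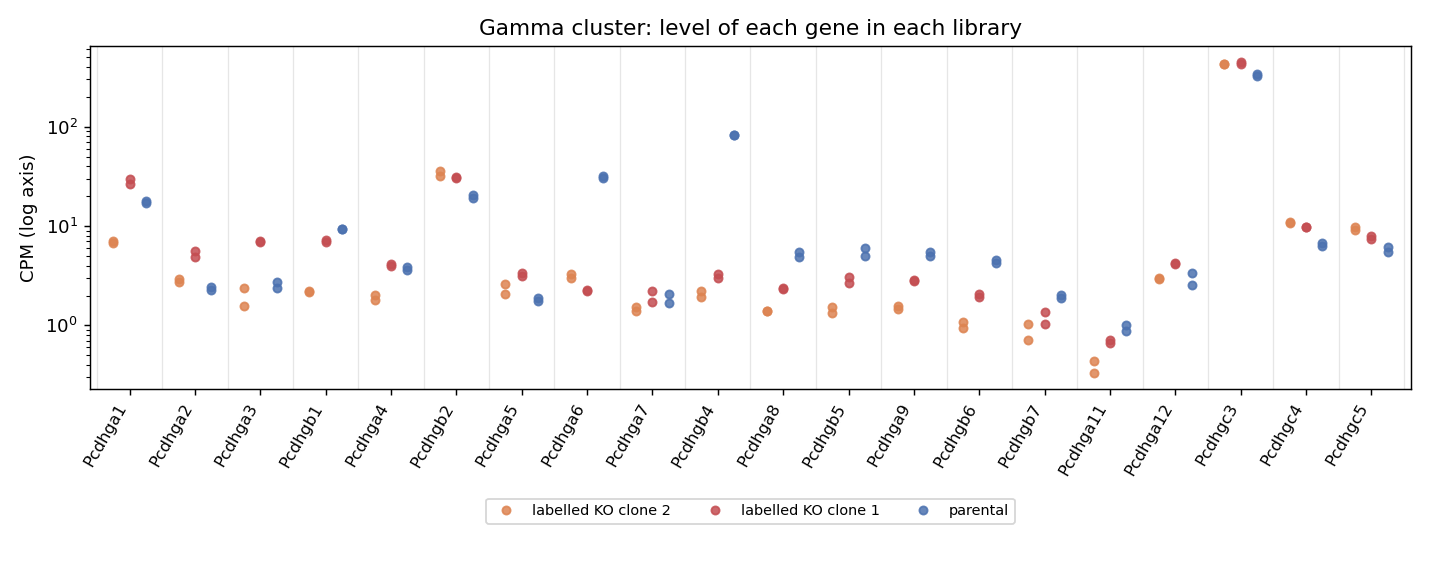
CPM (logarithmic axis) of the 20 gamma genes in locus order in each library, with labelled knockout clone 2, clone 1 and parental from left to right within a gene. Pcdhgb4 and Pcdhga6 are far lower in all 4 labelled knockout libraries, Pcdhgc3 is the highest gene in every library, and Pcdhga1, Pcdhga3 and Pcdhgb1 separate clone 2 from clone 1.

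The number of isoforms that share a cluster's counts was summarised per library as the inverse Simpson index, which equals the number of genes if all are counted equally and 1 if only a single gene is counted. It was 1.78 ± 0.00374 in clone 2, 1.52 ± 0.0321 in clone 1 and 3.73 ± 0.441 in the parental libraries for alpha. For beta it was 14.2 ± 0.103 in clone 2, 12.3 ± 0.0958 in clone 1 and 14.7 ± 0.0541 in the parental libraries. For gamma it was 1.45 ± 0.00604 in clone 2, 1.64 ± 0.0088 in clone 1 and 2.49 ± 0.0132 in the parental libraries. With counts per kilobase of own exon the beta order changed, to 15.4 in clone 2, 13.6 in clone 1 and 14.8 in the parental libraries.

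Without the C-type genes, the gamma A and B genes had an index of 3.74 ± 0.245 in clone 2, 6.06 ± 0.151 in clone 1 and 4.56 ± 0.139 in the parental libraries. Clone 1 was thus spread over more A and B genes than the parental cells and clone 2 over fewer, with library values that did not overlap. Among the A genes alone, clone 2 had the most even spread, with 7.65 ± 0.189 against 4.12 ± 0.0266 in the parental libraries, and clone 1 with 4.12 ± 0.253 did not differ from the parental libraries beyond its spread.

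The distance between the isoform profiles of 2 libraries was measured as the summed absolute difference of shares divided by 2, in percentage points. For the beta genes it was 15.5 to 16.2 between clone 1 and parental libraries, 15.1 to 15.9 between clone 2 and parental libraries, and 18.2 to 19.0 between clone 2 and clone 1 libraries, against 1.83 to 2.29 between libraries of 1 group. The clones therefore lay at least as far from each other as from the parental cells. For the gamma A and B genes the distances were 52.9 to 53.8 for clone 1 and parental, 52.3 to 54.1 for clone 2 and parental, and 23.96 to 26.81 for the clones, against 2.39 to 4.53 within a group. The alpha distances of 20.7 to 38.9 rest on few counts, and libraries of 1 group were already 8.51 to 11.5 apart.

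**Figure D5:**
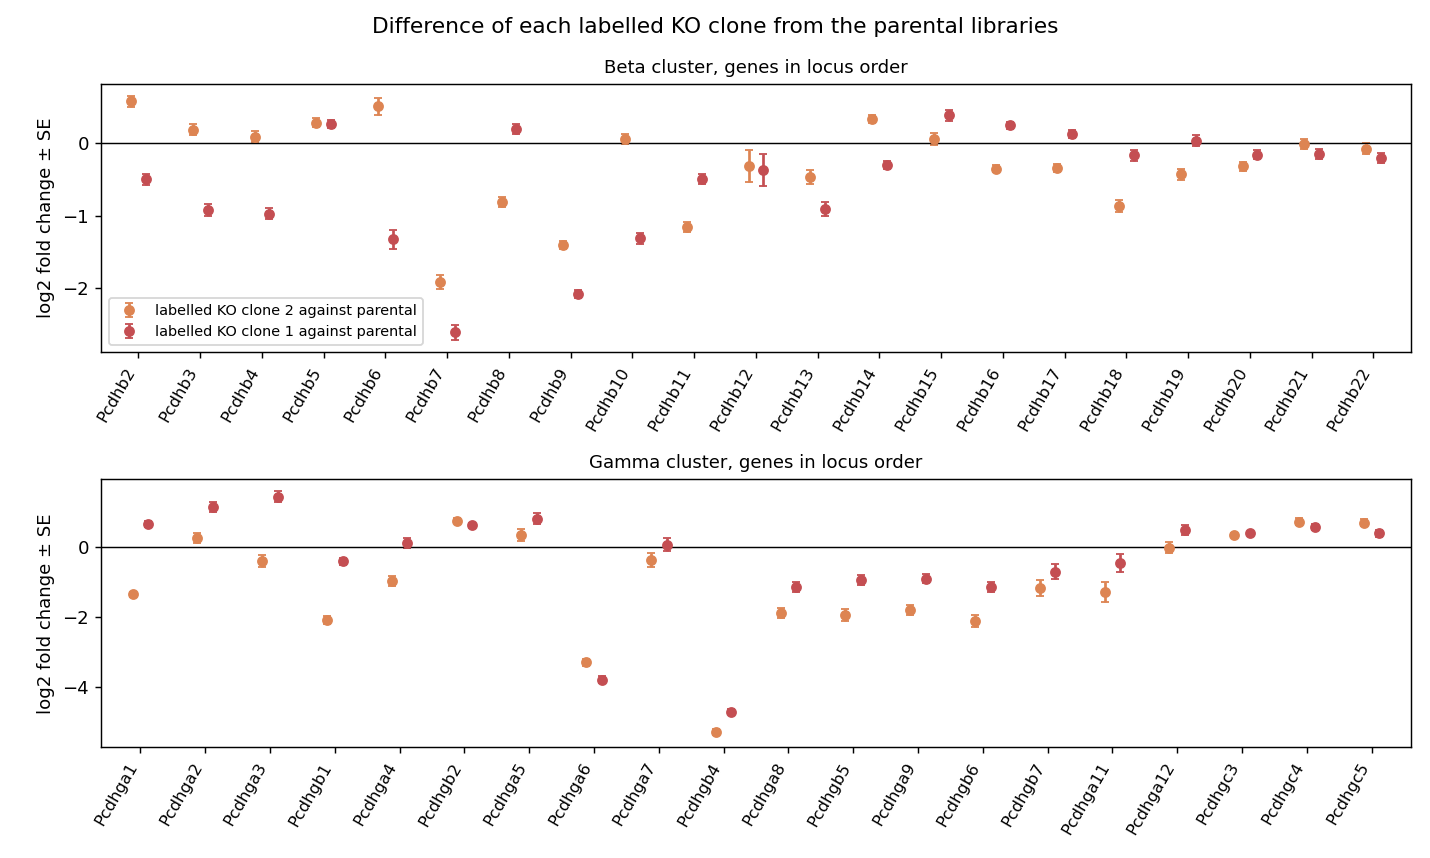
Log2 fold changes with their SE (bars) of the tested beta genes (upper panel) and gamma genes (lower panel) in locus order, for labelled knockout clone 2 and clone 1 against the same 2 parental libraries. Pcdhgb4 is the lowest point in each clone, at -5.31 in clone 2 and -4.71 in clone 1, and the clones lie on opposite sides of 0 for genes such as Pcdhb2, Pcdhb6, Pcdhb14 and Pcdhga1.

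Candidate regulators of protocadherin promoter choice were followed in a list of 22. It covers CTCF, cohesin subunits and loaders, and factors of DNA methylation and demethylation. It also holds Wapl, Pds5a, Pds5b, Wiz, Smchd1, Setdb1 and Trim28. In clone 1, 15 were higher and 2 lower than in the parental cells, and in clone 2, 8 were higher and 5 lower, with median log2 fold changes of 0.28 and 0.03 beside -0.01 and 0.02 for all genes. The called shares of 17 and 13 of 22 stand beside the backgrounds of 54.5% and 53.5%. Uhrf1, which brings the maintenance methyltransferase to newly copied DNA, rose most, to 40.6 CPM in clone 2 and 60.4 CPM in clone 1, against 5.52 CPM in the parental libraries (adjusted p = 1.11e-15 in clone 2 and 1.19e-16 in clone 1).

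Tet1 and Tet3, which oxidise methylated cytosine, also rose. Tet1 was at 93.1 CPM in clone 2, 117 CPM in clone 1 and 58.8 CPM in the parental libraries, and Tet3 rose by 0.50 in clone 1 and by 0.38 in clone 2 on the log2 scale (adjusted p = 1.6e-08 and 4.84e-07). Rad21, a cohesin subunit, rose by 0.47 in clone 1 (SE 0.04, adjusted p = 2.92e-08) and by 0.19 in clone 2 (SE 0.04, adjusted p = 0.000614). Ctcf, named here for its role with its values known, was at 94.8 CPM in clone 2, 110 CPM in clone 1 and 101 CPM in the parental libraries.

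Between the clones, 15 of the 22 regulators were lower and 1 higher in clone 2 than in clone 1, beside 20.3% of all genes lower and 16.1% higher. The 16 calls became 10 without clone 2 replicate 2. Whether any of these levels takes part in the protocadherin differences was not tested.

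The non-clustered protocadherins, which lie outside the arrays and include adhesion molecules of single axon tracts, had 10 tested members of 12. In clone 1, 7 were higher and 1 lower, beside 54.5% of all genes called. In clone 2, 5 were higher and 4 lower, beside 53.5% of all genes called. In clone 2 against clone 1 all 10 were called, 2 higher and 8 lower, against 36.4% of all genes (16.1% higher and 20.3% lower). Pcdh15, a part of the hair-cell tip link, was at 25.9 CPM in clone 2, 166 CPM in clone 1 and 135 CPM in the parental libraries (log2 -2.68 for clone 2 against clone 1, adjusted p = 1.04e-15). Pcdh7 was at 114 CPM in clone 2, 32.1 CPM in clone 1 and 25.6 CPM in the parental libraries (log2 1.82, adjusted p = 1.31e-13). Pcdh11x and Pcdh9 rose in each clone, Pcdh11x by 1.34 in clone 1 and by 0.98 in clone 2, and Pcdh9 by 0.82 and by 0.68 on the log2 scale.

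Of 19 other cadherins, 13 were tested, and 5 were higher and 6 lower in each clone, beside the same backgrounds of 54.5% called in clone 1 and 53.5% in clone 2. Cdh4, also known as R-cadherin, was at 99.2 CPM in clone 2, 146 CPM in clone 1 and 24.6 CPM in the parental libraries (adjusted p = 6.14e-15 in clone 2 and 2.98e-16 in clone 1), and Cdh13, a cadherin without a cytoplasmic part, was at 262 CPM, 179 CPM and 102 CPM in the same order. Cdh6 was at 0.883 CPM in clone 2, 6.05 CPM in clone 1 and 8.46 CPM in the parental libraries. Cdh10 rose by 1.02 in clone 1 and by 0.72 in clone 2 on the log2 scale.

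Among 19 partners that cut protocadherins or carry their signals, 9 were higher and 8 lower in clone 1, and 7 were higher and 8 lower in clone 2, where 54.5% and 53.5% of all genes were called. Cyfip2, a subunit of the WAVE complex that C-terminal protocadherin tails can recruit, was at 11.9 CPM in clone 2, 30.1 CPM in clone 1 and 48.8 CPM in the parental libraries. Fyn, a kinase, rose by 0.83 in clone 1 and by 0.99 in clone 2, Abi2, another WAVE subunit, by 0.78 and by 0.38, and Ncstn, a subunit of gamma-secretase, by 0.76 and by 0.73 on the log2 scale.

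For comparison, 15 genes beside or between the clusters that are not protocadherins were followed. In clone 1, 2 were higher and 7 lower, and in clone 2, 5 were higher and 5 lower, with median log2 fold changes of -0.17 and -0.03. The called shares, 9 and 10 of 15, stand beside 54.5% and 53.5% of all genes. The 9 calls in clone 1 were 5 without parental replicate 2, and the 10 in clone 2 were 5 without parental replicate 1 and 6 without clone 2 replicate 2. Diaph1, a formin downstream of the gamma cluster, fell by 0.33 in clone 1 (adjusted p = 7.32e-06) and by 0.24 in clone 2 (adjusted p = 0.000221). Zmat2 and Hars, upstream of the alpha cluster, fell by 0.58 and 0.44 in clone 1 and by 0.25 and 0.29 in clone 2. Taf7, which lies between the beta and gamma clusters, rose by 0.28 in clone 1 (adjusted p = 0.0175) and by 0.54 in clone 2 (adjusted p = 0.000121).

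Marker lists of glia and neurons differed between the same groups as the protocadherins. Their counts of called genes stand beside 53.5% of all genes called in clone 2 (26.7% higher and 26.8% lower). In clone 1 that share was 54.5% (27.3% higher and 27.2% lower). The 7 astrocyte markers summed to 2583 and 2603 CPM in clone 2, 1649 and 1636 CPM in clone 1, and 5655 and 5689 CPM in the parental libraries. Of them, 3 were higher and 4 lower in clone 2, and 1 was higher and 5 lower in clone 1. S100b was called higher in each clone, by 0.78 in clone 2 and by 0.43 in clone 1 on the log2 scale. Slc1a2 and Aldoc were called higher in clone 2 alone (log2 0.57 and 0.38). For Gfap, which encodes a filament protein of astrocytes, the level was 9.70 CPM in clone 2, 1.59 CPM in clone 1 and 2691 CPM in the parental libraries. The 7 oligodendrocyte lineage markers summed to 5615 and 5872 CPM in clone 2, 4823 and 4893 CPM in clone 1, and 1102 and 1108 CPM in the parental libraries. That sum was carried by the transcription factors Olig1 and Olig2, which rose by 2.68 and 2.08 in clone 2 and by 2.32 and 2.06 in clone 1 on the log2 scale, whereas the median of the list was -0.37 in clone 2 and -0.82 in clone 1, with 4 genes lower in each. The myelin genes Mbp and Mog stayed under 2 CPM in every group. The 8 neuron markers summed to 1064 and 1040 CPM in clone 2, 1505 and 1351 CPM in clone 1, and 1067 and 1075 CPM in the parental libraries. Map2, a microtubule protein, made up most of it, while 6 of the 8 genes were lower in each clone. Among those was Dcx, at 8.43 CPM in clone 2, 10.4 CPM in clone 1 and 66.8 CPM in the parental libraries. Map2 and Syt1 were called higher in clone 1 (log2 0.53 and 1.67) and were not called in clone 2 (log2 0.09 and 0.27). The part of these shifts in the choice of protocadherin isoforms was not tested.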

How the data were processed

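The authors deposited 1 table of whole-number counts per gene for 6 RNA libraries of the mouse line NPC. STAR and featureCounts were used with GRCm38.p6 and mm10, per the submitters' processing notes, and the labels' protocols name a SMART-Seq and a TruSeq kit. The sources used here do not give the kit of each library, the strand setting or the handling of shared reads. In the GENCODE annotation of GRCm38, all alpha and gamma genes share constant exons. The 8 locus genes with no exon bases of their own had 0 rows in the table, while 75 of 77 with own bases had a row. Levels are therefore also given per kilobase of own exon where stated. Shares, sums and inverse Simpson indices otherwise used counts not scaled to length.

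The members and lists were chosen with earlier results of these data known. Groups came from sample titles. Counts were tested in R 4.3.3 with edgeR 4.0.16 (filterByExpr with a minimum count of 10, TMM scaling, robust quasi-likelihood F test, Benjamini-Hochberg adjustment over all genes, threshold 0.05). One fit of 6 libraries in 3 groups gave clone 1 against parental, clone 2 against parental and clone 2 against clone 1. A second fit of 4 columns added the libraries of each clone. The SE is the log2 fold change divided by the square root of F. CPM used TMM-scaled totals. No pair of libraries of a group agreed within counting noise, and the clone 1 pair stood furthest apart (chi-square per gene 3.91 in clone 2, 15.6 in clone 1 and 2.78 in the parental pair).

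Named members were the 5 C-type genes, the 3 with the largest share of each cluster in each group, and in each cluster and comparison the 3 called genes with the highest and the 3 with the lowest log2 fold change among those with at least 0.5 CPM in a group. From other lists the 4 genes with the smallest adjusted p were named. Alternatives were RLE and upper quartile scaling, no filter, DESeq2 1.42.0, the replicate number as a block, and leaving out each library. Pcdhga10 was not analysed here. The gene targeted in the clones is not reported here. No sequences of these genes are printed.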

Additional observations from a re-analysis of the deposited data

Results flagged for a closer look

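In clone 2 against clone 1, 33 of the 45 tested members were called, beside 36.4% of all genes. Each group is 1 clone, so unlike effects of the labelled knockout and other differences between the clones cannot be told apart. Many of the genes given here were named for their fold change in this very comparison, so their number is no result. In the alpha cluster the log2 difference was -3.10 for Pcdha9 and 5.32 for Pcdha10, both fitted on groups with counts of 0 or 1 and therefore dependent on the fit. In all, 9 beta genes were called higher and 7 lower, and only those picked by the rule for named members are listed. Higher in clone 2 than in clone 1 were the beta genes Pcdhb6 by 1.83, Pcdhb10 by 1.37, Pcdhb3 by 1.11, Pcdhb2 by 1.08, Pcdhb7 by 0.69, Pcdhb9 by 0.67 and Pcdhb14 by 0.63. Lower in clone 2 were Pcdhb8 (-1.01), Pcdhb18 (-0.70), Pcdhb11 (-0.66), Pcdhb16 (-0.60), Pcdhb19 (-0.47) and Pcdhb15 (-0.33).

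In the gamma cluster, Pcdhga6 was higher in clone 2 than in clone 1 by 0.50 and Pcdhgc5 by 0.30. The Pcdhgc5 difference was lost with DESeq2 and without clone 1 replicate 2 or either clone 2 library. Lower in clone 2 were Pcdhga1 (-2.03), Pcdhga3 (-1.84), Pcdhgb1 (-1.68), Pcdhgb6 (-0.98), Pcdhga2 (-0.89), Pcdhga8 (-0.74), Pcdhgb4 (-0.59) and Pcdhga5 (-0.46). These are the genes picked by the rule for named members, while 13 gamma genes in all were called lower.

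Outside the gene rule and the lists above, 10 transcripts of the locus were tested. In clone 2, 1 of these was called higher and 3 lower than in the parental libraries. In clone 1, 3 were called higher and 2 lower. Taf7 and Slc25a2, which lie between the beta and gamma clusters, are counted with the neighbouring genes instead. Both were called higher in each clone. Of all genes tested, 53.5% were called in clone 2 and 54.5% in clone 1. Gm10544, a processed transcript annotated on the minus strand within the alpha span, had 82 and 71 counts in clone 2, 114 and 122 in clone 1, and 40 and 27 in the parental libraries, and was higher by 1.69 in clone 1 and by 1.14 in clone 2 on the log2 scale. Pcdhgb8, whose row carries no symbol in the table, was higher by 0.52 in clone 1. Gm29994, an antisense transcript in the gamma span, was higher by 0.61 in clone 1. Lower were 3222401L13Rik, a lincRNA upstream of Pcdhga1 (log2 -2.29 in clone 2 and -2.57 in clone 1), and Gm26672, a processed transcript on the minus strand in the gamma span (log2 -2.07 in clone 2 and -0.67 in clone 1). Gm37446, an antisense transcript in the beta span, was lower in clone 2 (log2 -1.31) and not called in clone 1 (log2 -0.10). Without a stated strand setting, reads of those within a cluster span and of overlapping protocadherin transcripts cannot be told apart. 3222401L13Rik ends upstream of Pcdhga1, and all its 6292 exon bases are its own.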

How the results depend on the processing

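For named members, 1256 of 1358 alternative values kept their direction and side of the threshold, 46 lost the call, 40 gained it and 16 changed sign. All the sign changes were of results not called in the reported fit. With a library left out, Pcdhgc3 ranged from -0.0889 to 0.0204 and Pcdhb5 from -0.0793 to 0.1313 in clone 2 against clone 1, and Pcdhb19 from -0.087 to 0.1805 in clone 1 against parental, where upper quartile scaling gave -0.006. In both clones against parental, Pcdhb16 ranged from -0.0409 to 0.0452 and Pcdhga1 from -0.0865 to 0.0639. There RLE gave -0.0137 and 0, upper quartile scaling -0.0661 and -0.0603, and libraries as replicates -0.0514 and -0.3384 for Pcdhb16 and Pcdhga1, the last being called. The cause was not tested.

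Members called ranged, with a library left out, from 30 to 37 in clone 1 against parental, 30 to 35 in clone 2 against parental, 27 to 32 in clone 2 against clone 1 and 4 to 14 for both clones, where libraries as replicates gave 36. Replicate numbers did not pair the libraries (correlations of deviations -0.00746, -0.0152 and 0.0191). With the number as a replicate block, 38, 31 and 32 members were called in the 3 comparisons, against 36, 31 and 33. The summed fit allows no block.

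Shares per kilobase moved the effective number of isoforms to 1.96, 1.76 and 4.95 (alpha), 15.4, 13.6 and 14.8 (beta), and 1.27, 1.40 and 1.88 (gamma) in clone 2, clone 1 and parental libraries. Chosen after seeing the data, leaving out the C-type genes gave 3.74, 6.06 and 4.56 for gamma, and adding Pcdhgb8 gave 1.496, 1.714 and 2.568. Log2 ratios of summed counts with a library left out ranged from -1.42 to -1.21 (alpha, clone 1 against parental), -1.08 to -0.967 (alpha, clone 2), -0.349 to -0.201 and -0.317 to -0.26 (beta), and 0.0225 to 0.105 and -0.0984 to -0.0431 (gamma). Low alpha counts limit the precision of that cluster. The alternatives for the calls in the lists of regulators and neighbouring genes were also chosen after seeing the data.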
